A study of Homo sapiens with 24 samples.

Results

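The 10 genes described here encode secreted cytokines and chemokines whose transcription NF-kB is known to drive: IL6, IL1A, IL1B, CXCL1, CXCL2, CXCL3, CXCL8, CCL20, LIF and CSF2. They were taken by symbol from the count tables of 4 human cancer cell lines, and all 10 were found among the 61533 genes of each table. RNA was sequenced 24 h after a 60 s exposure to Piezo-CAP, a cold atmospheric plasma made by a piezoelectric device, and from wells of the same line with no exposure (0 s). The lines were Cal27 (squamous carcinoma of the tongue), Fadu (squamous carcinoma of the hypopharynx), A375 (a melanoma line, although its label counts it as head and neck cancer) and Hth83 (by its name an anaplastic thyroid carcinoma). All were labelled wild type, and 3 libraries were made per line and condition, which gives 24 libraries in 8 groups. Fadu was grown in MEM and the other lines in DMEM, each with 10% fetal bovine serum, so line, tumour of origin and medium cannot be told apart.

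NF-kB is a family of dimeric transcription factors held in the cytoplasm by IkB proteins until the IKK kinase complex marks these for destruction. Its targets include inflammatory cytokines and also its own inhibitors, such as NFKBIA and TNFAIP3, which close a negative feedback loop. In squamous carcinoma cells the pathway is known for sustaining the secretion of IL1A, IL6 and CXCL8, which act on the tumour cells themselves and draw in neutrophils and macrophages. AP-1 and C/EBP factors bind several of the same promoters, and the mRNAs are short lived because AU-rich elements direct their decay.

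Total counts ran from 27.9 to 49.5 M (mega) per library. Whether replicate libraries stem from separate cultures is not stated in the labels, and p-values therefore reflect the spread among these libraries alone, which may be technical. Of 18 squamous markers, 17 exceeded 10 CPM (counts scaled to a common library depth) in untreated Cal27, 18 in Fadu, 16 in Hth83 and 4 in A375, while A375 had 6 of 11 melanocyte and neural crest markers above that level. In untreated Hth83 only PAX8 of 12 thyroid markers did so, and TSHR and NKX2-1 had 0 counts. The summed level of 18 leukocyte markers was 1.49 to 20.9 CPM over all libraries. In these bulk libraries, fewer cells of a kind and less RNA per cell cannot be told apart.

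The start regions of the chemokine genes are shown first because they carry the NF-kB site by which the family is known and because 3 of them are nearly the same sequence. Each line below gives the 120 bases before the RefSeq transcription start (GRCh38.p14), 5′ to 3′ on the gene's own strand, with the kappa B consensus match in capitals, or in CXCL8 the related motif GGAATTTCC.
CXCL1: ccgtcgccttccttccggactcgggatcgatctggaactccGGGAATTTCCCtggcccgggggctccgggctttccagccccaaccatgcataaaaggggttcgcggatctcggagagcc
CXCL2: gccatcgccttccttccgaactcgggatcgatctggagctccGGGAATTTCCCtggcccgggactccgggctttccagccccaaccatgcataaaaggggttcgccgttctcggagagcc
CXCL3: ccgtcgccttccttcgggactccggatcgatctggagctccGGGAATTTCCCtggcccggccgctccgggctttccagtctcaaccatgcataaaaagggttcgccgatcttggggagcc
CXCL8: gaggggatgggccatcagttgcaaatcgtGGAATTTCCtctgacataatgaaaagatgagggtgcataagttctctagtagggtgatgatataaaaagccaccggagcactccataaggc
IL6: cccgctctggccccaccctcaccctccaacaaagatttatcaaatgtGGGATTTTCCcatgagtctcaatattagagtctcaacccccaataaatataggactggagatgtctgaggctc
CCL20: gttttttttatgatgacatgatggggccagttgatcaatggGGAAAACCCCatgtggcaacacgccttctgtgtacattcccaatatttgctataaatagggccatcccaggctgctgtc

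These stretches lie at chr4:73869273-73869392 on the plus strand for CXCL1, chr4:74099196-74099315 on the minus strand for CXCL2 and chr4:74038690-74038809 on the minus strand for CXCL3. Those of CXCL8 (chr4:73740449-73740568), IL6 (chr7:22727080-22727199) and CCL20 (chr2:227813722-227813841) are on the plus strand. The table of start regions held 9 of the 10 genes, and LIF had no entry. The kappa B consensus, searched on both strands of the 250 bases before each start, matched in 5 of the 9 genes, starting 73 bases before the start in IL6, 78 in CXCL2 and 79 in CXCL1, CXCL3 and CCL20 (in CCL20 on the opposite strand). Of 35116 start regions of the same length, 5.21% held a match. The motif GGAATTTCC, which overlaps the consensus in CXCL1, CXCL2 and CXCL3 and also occurs 91 bases before the start of CXCL8, was in 4 of the 9 genes and in 0.413% of all start regions. An AP-1 motif, TGANTCA, was in IL1A and CXCL8, 137 bases before the start of CXCL8, and in 6.57% of all start regions. IL1B and CSF2 held none of the 3 motifs in this window. A match describes letters only, and binding was not measured.

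CXCL1, CXCL2, CXCL3 and CXCL8 belong to the CXC chemokine cluster of chromosome 4, where CXCL8 starts at base 73740506 and CXCL2, the far end, finishes at base 74099293 in GENCODE 29 (GRCh38). The coding sequences of CXCL1 and CXCL2 were identical at 93.5% of aligned bases, those of CXCL1 and CXCL3 at 90.7% and those of CXCL2 and CXCL3 at 94.4%. CXCL8 shared 57% to 59% with them. Their start regions were 82.3% to 86.8% identical among the first 3 and 45.1% to 52.4% against CXCL8. Between 0.573% and 5.73% of the 50-base words of a CXCL1, CXCL2 or CXCL3 transcript recurred in one of the other two, so their counts are uncertain where reads could be split between them. IL1A and IL1B are neighbours on chromosome 2, at chr2:112773915-112784590 and chr2:112829751-112836903. IL6 is overlapped on the opposite strand by STEAP1B and AC073072.1, and LIF by LIF-AS1 and AC004264.1. The sources used here do not give whether counting used strand, so reads of these overlapping genes cannot be told apart.

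Before treatment the family was expressed at very different levels in the 4 lines. Summed over the 10 genes, the deposited TPM (a level scaled for transcript length and library depth) was 10476 ± 468 in Hth83 and 7709.6 ± 212 in Cal27 (mean ± SD, n = 3). It was 1495 ± 22.7 in Fadu and 525 ± 31.0 in A375. Different genes led in each line. IL1B alone made up 55.8% of the sum in untreated Hth83, at 6215, 5801 and 5519 TPM, with LIF (1802 TPM) and IL1A (1369 TPM) next. In untreated Cal27 the sum was spread over several genes, led by CXCL2, a neutrophil chemoattractant, with a mean of 1629 TPM, IL1A with 1435 TPM and CXCL8 with 1385 TPM. CXCL8 and CXCL1 led in Fadu, with means of 572 and 347 TPM, and LIF and CXCL8 in A375, with 207 and 160 TPM.

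**Figure D1:**
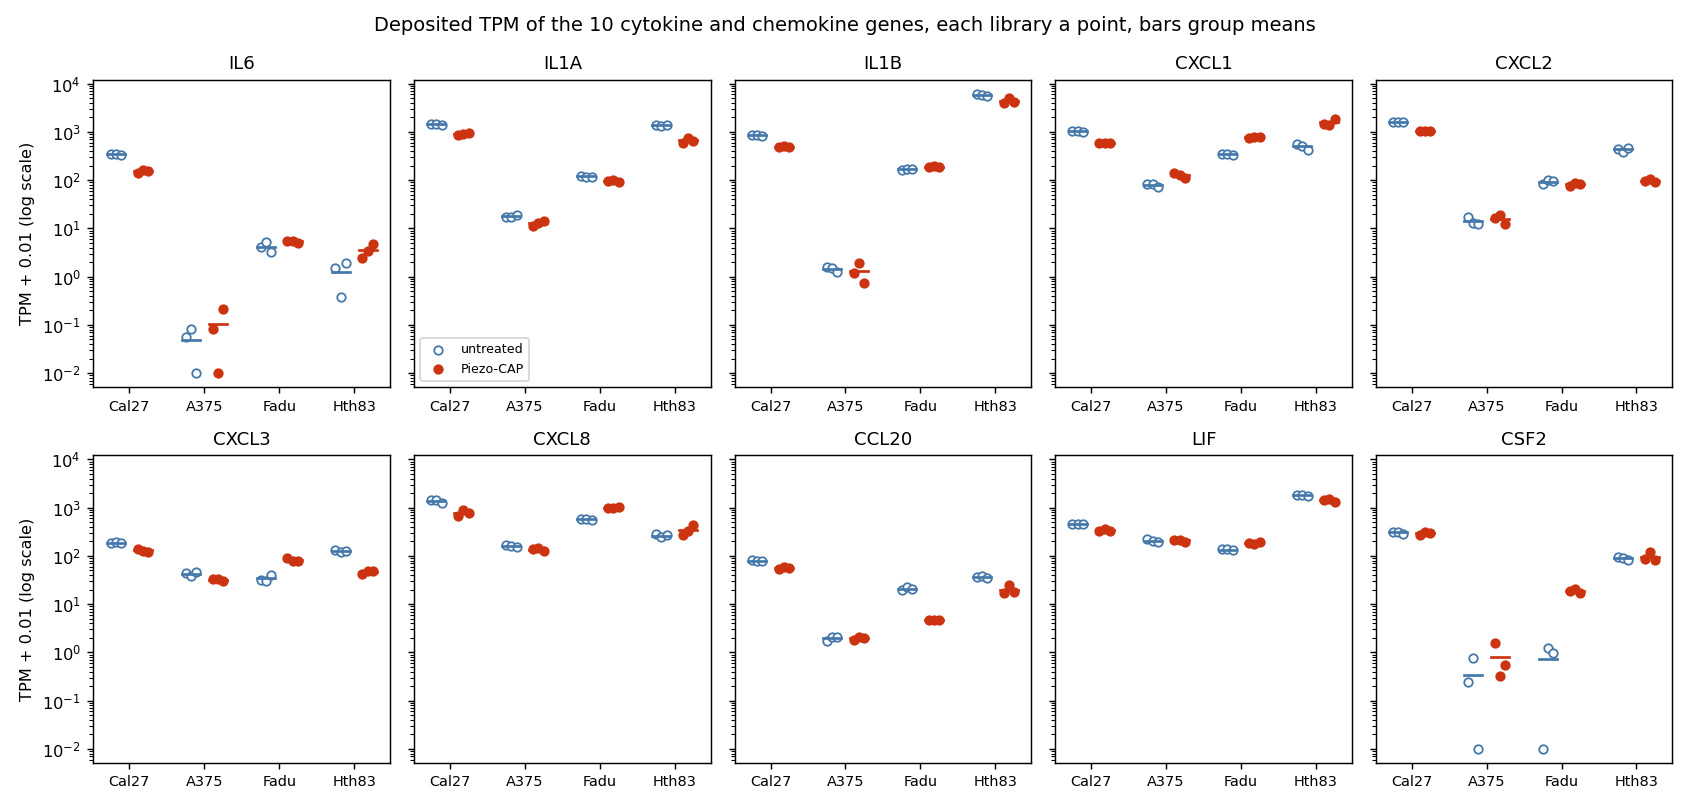
Deposited TPM of each of the 10 genes in every library, on a log scale after adding 0.01 TPM. Open blue points are untreated and filled red points Piezo-CAP libraries, and bars are group means. IL1B, LIF and IL1A are high in Hth83, IL6 stands at 336 to 357 TPM in untreated Cal27 and below 10 TPM in the other lines, and CSF2 rises from near 0 in Fadu.

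All 6 differences between untreated lines were tested in 1 edgeR fit of the 24 libraries. All 10 genes differed between Cal27 and each other line, between A375 and Hth83 and between Fadu and Hth83, and 8 of 10 differed between A375 and Fadu. The share of all 23642 genes that differed was 76.8% for Cal27 and A375, 69.6% for Cal27 and Fadu, 68.7% for Cal27 and Hth83, 75.6% for A375 and Fadu, 71.7% for A375 and Hth83 and 69.4% for Fadu and Hth83. Most genes of any kind thus differed between lines. Cal27 was highest for 8 of the genes and Hth83 for IL1B and LIF. For IL1A the deposited TPM of untreated Cal27 and Hth83 overlapped, with means of 1435 and 1369. The edgeR fit of counts put Cal27 higher there (log2 0.32, adjusted p = 0.000101). A375 was lowest for 8, the exceptions being CXCL3 and LIF, for which Fadu was lowest.

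IL6, the cytokine that signals through the shared receptor subunit IL6ST to STAT3, was abundant in 1 line only. Its level was 357, 355 and 336 TPM in untreated Cal27, 4.12, 5.24 and 3.22 TPM in Fadu, 1.49, 0.376 and 1.90 TPM in Hth83, and 0.0458, 0.0721 and 0 TPM in A375. The Cal27 libraries stood far above every other library, and the order of the other lines was Fadu, Hth83, A375 with no overlap between lines. CSF2, which encodes GM-CSF, the growth factor of granulocytes and macrophages, was at 314, 315 and 291 TPM in untreated Cal27 and 95.7, 89.5 and 80.3 TPM in Hth83. In untreated Fadu it was listed at 0, 1.24 and 0.940 TPM and in A375 at 0.235, 0.741 and 0 TPM. The last pair overlapped and did not differ in the test (edgeR adjusted p = 0.199). IL1B was 116-fold higher by mean TPM in Fadu than in A375, where it reached at most 1.59 TPM before treatment. CXCL3 was within a narrower range, and its levels in A375 and Fadu did not differ by the test (log2 difference 0.24, edgeR adjusted p = 0.0642).

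Plasma treatment moved the family in different directions in the 4 lines. In Cal27 all 10 genes fell. In Fadu 6 rose and 2 fell, in Hth83 2 rose and 6 fell, and in A375 1 rose and 3 fell of the 8 with enough counts to be tested. The A375 split turned on single libraries, with 2 higher and 1 lower without untreated replicate 1 and likewise without treated replicate 3. Among all genes tested, 45.1% changed in Cal27 (21.9% higher and 23.2% lower) and 53.3% in Fadu (26.3% higher and 27% lower). The share was 50.1% in Hth83 (25.9% higher and 24.2% lower) and 50.5% in A375 (25.7% higher and 24.8% lower), so a changed gene was common in every line. The CPM of untreated and treated libraries did not overlap for 10 of the genes in Cal27, 8 in Fadu, 8 in Hth83 and 4 in A375, against 52.7%, 58.6%, 57.2% and 57.9% of all genes tested. The median log2 fold change of the family was −0.88 in Cal27, 0.39 in Fadu, −0.44 in Hth83 and −0.01 in A375. The median of all genes tested lay between −0.02 and 0.01 in each line. The summed TPM of the 10 genes went from 7709.6 to 4798 in Cal27, from 10476 to 8679 in Hth83, from 1495 to 2445 in Fadu and from 525 to 537 in A375, without overlap between groups in the first 3.

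**Figure D2:**
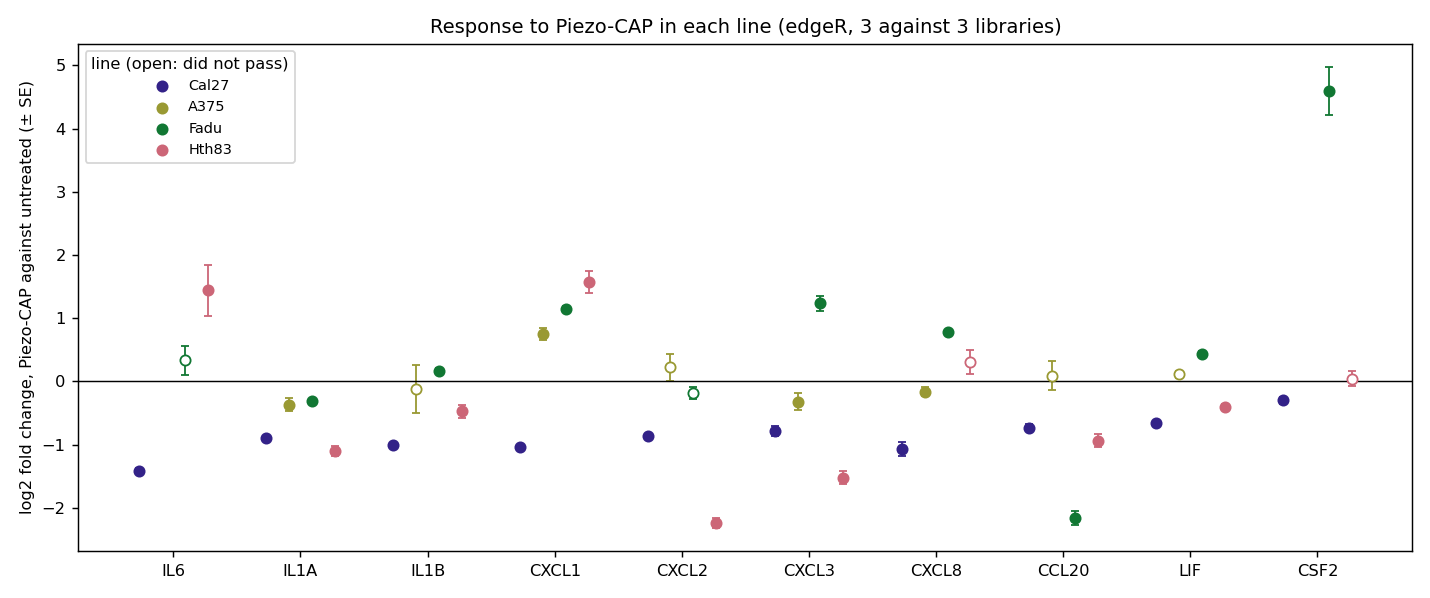
Log2 fold change of each gene after Piezo-CAP against untreated libraries, by line, with its standard error (edgeR, 3 against 3 libraries). Filled points passed an adjusted p of 0.05 and open points did not. Every Cal27 point lies below 0, from −1.42 for IL6 to −0.30 for CSF2, whereas CXCL1 lies above 0 in the other 3 lines.

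IL6 had the largest fall of the 10 genes in Cal27. Its level was 191, 192 and 179 CPM in the untreated libraries and 66.4, 72.1 and 71.8 CPM in the treated ones. The treated libraries lay well below the untreated ones, and the fold change was 2.67-fold lower (log2 −1.42 ± 0.05 SE, edgeR adjusted p = 6.99e-22). In Hth83, where IL6 is scarce, counts were 25, 6 and 25 before and 37, 46 and 72 after treatment. The groups did not overlap and IL6 rose (log2 1.44 ± 0.40, edgeR adjusted p = 0.00394), but at a treated mean of 1.52 CPM. Fadu gave 1.92, 2.40 and 1.48 CPM against 2.58, 2.51 and 2.28 CPM, groups that overlapped and did not pass the test (log2 0.33 ± 0.23, edgeR adjusted p = 0.220). A375 had at most 4 IL6 reads in any library and was not tested.

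IL1A was the one gene that fell in all 4 lines. It encodes an interleukin 1 that is active as a precursor and is released from damaged epithelial cells. In Cal27 it was at 1344, 1376 and 1265 CPM before and 690, 721 and 733 CPM after treatment, and in Hth83 at 1093, 997 and 1093 CPM before and 433, 557 and 492 CPM after. Both lines kept a wide gap between groups, with log2 fold changes of −0.89 ± 0.03 and −1.10 ± 0.08 (edgeR adjusted p = 5.74e-20 and 3.23e-06). The fall was smaller in Fadu, from 92.6 to 98.4 CPM down to 73.8 to 78.6 CPM (log2 −0.32 ± 0.04), and in A375, from 12.7 to 14.1 CPM down to 8.95 to 11.2 CPM (log2 −0.37 ± 0.10). The difference of 0.21 between the Cal27 and Hth83 effects did not pass after adjustment over all genes (edgeR adjusted p = 0.0732). Its 95% interval, which is not adjusted, was 0.04 to 0.39 and so lay above 0. The effects of A375 and Fadu did not differ by the test (−0.08, interval −0.33 to 0.16).

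IL1B, the other main interleukin 1, which caspase 1 cleaves before release, did not follow IL1A everywhere. In Hth83, the line with the most IL1B, it was at 3252, 2956 and 2877 CPM before and 2005, 2523 and 2026 CPM after treatment. The treated libraries were all lower and differed more among themselves (log2 −0.47 ± 0.10, edgeR adjusted p = 0.010). Without treated replicate 3 of Hth83 the adjusted p was 0.0588. In Cal27 IL1B went from 538, 537 and 509 CPM to 265, 261 and 261 CPM (log2 −1.01 ± 0.03). In Fadu it rose slightly, from 88.2, 89.5 and 91.7 CPM to 102, 101 and 100.2 CPM, while IL1A fell. Within a library the TPM ratio of IL1B to IL1A accordingly went from 1.34 to 1.45 in untreated to 1.91 to 2.03 in treated Fadu libraries, and from 3.94 to 4.45 up to 6.16 to 6.92 in Hth83. In Cal27 it was 0.583 to 0.602 before and 0.532 to 0.574 after treatment.

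CXCL1, a neutrophil chemoattractant that signals through CXCR2, was the gene that rose in 3 lines and fell in 1. In Hth83 it went from 80.4, 72.2 and 60.9 CPM to 197, 188 and 251 CPM, and in Fadu from 50.4, 51.2 and 48.9 CPM to 108, 110 and 115 CPM. Every treated library was above every untreated one in both lines, with rises of 2.97-fold (log2 1.57 ± 0.17, edgeR adjusted p = 0.00125) and 2.22-fold (log2 1.15 ± 0.05, edgeR adjusted p = 1.86e-39). In A375 it rose from 11.4, 11.1 and 9.67 CPM to 20.5, 18.2 and 15.9 CPM (log2 0.75 ± 0.10). In Cal27 it fell from 174, 177 and 166 CPM to 83.7, 83.9 and 83.3 CPM (log2 −1.04 ± 0.04). The difference between the Cal27 and Hth83 effects was −2.61 on the log2 scale (95% interval −2.89 to −2.33, edgeR adjusted p = 1.27e-11).

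CXCL2 and CXCL3 moved against CXCL1 in Hth83, whereas all 3 fell in Cal27 (log2 −0.86 ± 0.04 for CXCL2 and −0.78 ± 0.07 for CXCL3). CXCL2 fell in Hth83 from 71.5, 60.9 and 75.2 CPM to 14.7, 15.8 and 13.6 CPM, in the same libraries in which CXCL1 rose. The groups were far apart and the fall was 4.71-fold (log2 −2.24 ± 0.08, edgeR adjusted p = 2.23e-19). CXCL3 fell in Hth83 from 21.6, 19.5 and 20.5 CPM to 6.61, 7.39 and 7.43 CPM (log2 −1.52 ± 0.10). In Fadu CXCL3 rose, as CXCL1 did, from 5.35, 5.03 and 6.78 CPM to 15.1, 12.6 and 12.7 CPM (log2 1.24 ± 0.12, edgeR adjusted p = 4.66e-16). There CXCL2 was at 13.8, 16.4 and 15.5 CPM before and 12.6, 13.8 and 13.7 CPM after treatment, overlapping groups that did not pass the test. The opposite response of CXCL3 in Fadu and Hth83 gave the largest tested difference of the 3 genes between those lines, 2.78 on the log2 scale (95% interval 2.48 to 3.08).

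The balance of the 3 chemokines within a library shows the same shift. In untreated Hth83 libraries the TPM of CXCL1 was 0.912 to 1.33 times that of CXCL2, and in treated ones 13.4 to 20.8 times. In Fadu the ratio went from between 3.52 and 4.12 to between 9.0 and 9.72, and in A375 from between 4.78 and 6.61 to between 6.91 and 9.03. In Cal27, where all 3 fell, it moved from between 0.611 and 0.649 to between 0.555 and 0.558. The groups did not overlap in any of the 4 lines, but the shift in Cal27 and A375 was small beside that in Hth83. The ratio of CXCL1 to CXCL3 rose from between 3.44 and 4.30 to between 29.4 and 39.1 in Hth83 and from between 1.56 and 2.17 to between 3.72 and 4.19 in A375. In Cal27 it fell from between 5.28 and 5.49 to between 4.09 and 4.86, and in Fadu the groups overlapped (8.35 to 11.8 before and 8.33 to 10.5 after). These ratios are descriptions and were not tested.

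**Figure D3:**
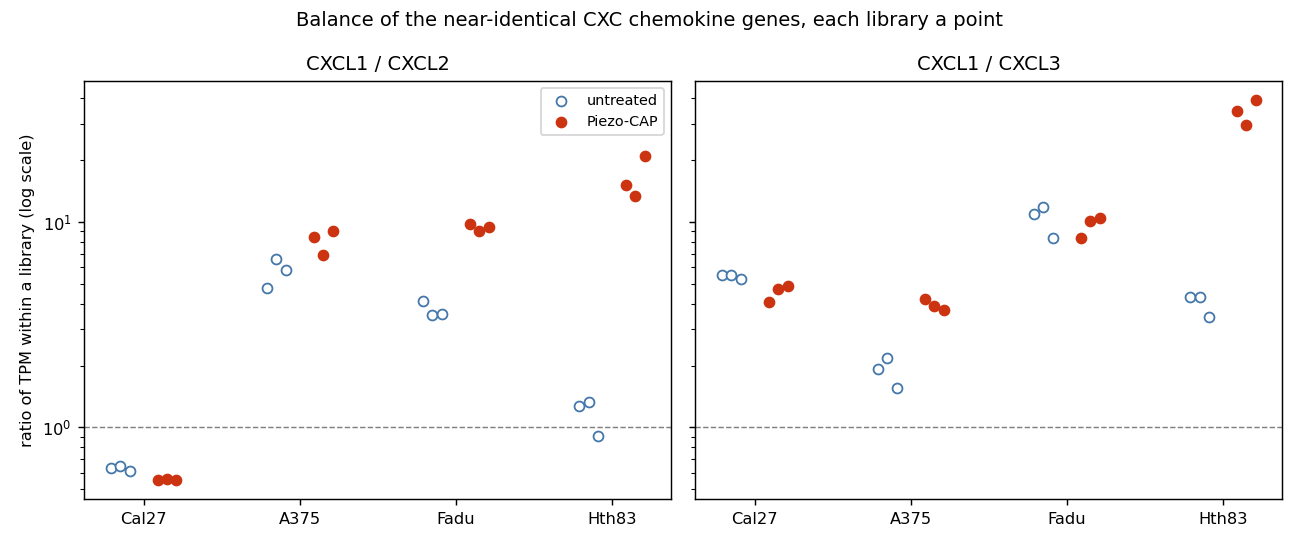
Ratio of the TPM of CXCL1 to that of CXCL2 (left) and CXCL3 (right) within each library, on a log scale. Open blue points are untreated and filled red points Piezo-CAP libraries, and the dashed line marks equal TPM. In Hth83 the ratio to CXCL2 went from 0.912 to 1.33 up to 13.4 to 20.8.

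CXCL8, the main human neutrophil chemoattractant and the first gene of the chromosome 4 cluster, fell in Cal27 and rose in Fadu. In Cal27 it was at 396, 409 and 351 CPM before and 162, 206 and 183 CPM after treatment (log2 −1.07 ± 0.11, edgeR adjusted p = 0.000844). In Fadu it went from 138, 138 and 136 CPM to 235, 234 and 240 CPM (log2 0.79 ± 0.04, edgeR adjusted p = 1.36e-35). The groups were well separated in both lines. In Hth83 the values were 67.0, 55.3 and 62.9 CPM before and 62.0, 72.0 and 95.5 CPM after treatment, and the groups overlapped (log2 0.31 ± 0.19, edgeR adjusted p = 0.259). Without treated replicate 1 of Hth83 the adjusted p was 0.0140. In A375 CXCL8 and CXCL3 passed narrowly, with log2 fold changes of −0.16 ± 0.06 and −0.32 ± 0.13 and edgeR adjusted p of 0.0385 and 0.0422. DESeq2 passed neither, with adjusted p of 0.110 and 0.121.

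CCL20, which attracts dendritic cells and T cells that carry CCR6, fell in 3 lines. Its largest fall was in Fadu, from 17.5, 20.2 and 18.1 CPM to 4.19, 4.12 and 4.13 CPM, a 4.49-fold decrease (log2 −2.17 ± 0.11, edgeR adjusted p = 7.67e-32). Fadu thus lowered CCL20 while it raised CXCL1, CXCL3 and CXCL8, and the groups were far apart for each of these. In Hth83 CCL20 went from 32.2, 32.3 and 29.7 CPM to 14.04, 20.3 and 14.98 CPM (log2 −0.94 ± 0.10), and in Cal27 from 85.0, 82.8 and 80.0 CPM to 48.8, 50.3 and 50.2 CPM (log2 −0.73 ± 0.05). The Cal27 and Hth83 effects did not differ by the test (difference 0.21, 95% interval −0.01 to 0.43), whereas Fadu fell further than Hth83 (difference −1.21, interval −1.48 to −0.94). A375 held 1.42 to 1.73 CPM before and 1.61 to 1.81 CPM after treatment and did not pass.

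LIF is a cytokine of the IL6 family that signals through LIFR and IL6ST. It fell in Cal27 from 249, 256 and 248 CPM to 156, 164 and 155 CPM (log2 −0.66 ± 0.04) and in Hth83 from 853, 822 and 824 CPM to 643, 665 and 586 CPM (log2 −0.40 ± 0.05). It rose in Fadu from 65.7, 65.0 and 61.5 CPM to 86.2, 81.9 and 92.8 CPM (log2 0.44 ± 0.05). None of these groups overlapped. In A375 the values were 98.1, 90.6 and 85.0 CPM against 104, 101 and 91.2 CPM, overlapping groups (log2 0.11 ± 0.05, edgeR adjusted p = 0.0777), and the call there turned on single libraries: the adjusted p was 0.0162 without untreated replicate 1 and 0.0134 without treated replicate 3.

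CSF2 changed most in Fadu, where it began near 0. The untreated Fadu libraries held 0, 8 and 5 CSF2 reads and the treated ones 100, 130 and 96. All treated libraries were far above the untreated ones, and the fitted change of 24.2-fold (log2 4.6 ± 0.38, edgeR adjusted p = 1.21e-18) rests on those few untreated reads. The log2 change was 5.28 without untreated replicate 2 and 3.58 with limma on log2(TPM + 1). The treated level, a mean of 18.5 TPM, was still below the 88.5 TPM of untreated Hth83 and the 306 TPM of untreated Cal27. In Cal27 CSF2 went from 65.3, 66.3 and 60.2 CPM to 49.0, 53.8 and 53.4 CPM (log2 −0.30 ± 0.06, edgeR adjusted p = 4.88e-05), but on log2(TPM + 1) limma gave −0.06 with an adjusted p of 0.396. On that scale the median of all genes in Cal27 lay at 0.18, and the other 9 genes still fell. In Hth83 CSF2 was at 16.9, 15.4 and 14.1 CPM before and 14.4, 20.0 and 13.5 CPM after treatment, overlapping groups with no call. A375 had at most 8 reads and was not tested.

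The differences between lines were also tested directly. The line by treatment interaction passed for all 10 genes, against 56.9% of the 23642 genes in that fit. Of the 8 genes tested in every line, 5 (IL1B, CXCL1, CXCL3, CXCL8 and LIF) rose in at least 1 line and fell in at least 1 other, as did 44.5% of the 14240 genes tested in all 4 lines. In pairs of lines, the effects of Cal27 and Fadu differed for 10 of 10 genes (38.4% of all genes), with Cal27 lower for 9 and higher for CCL20. Those of Fadu and Hth83 also differed for 10 of 10 (35.7% of all genes), with Fadu higher for 7 and lower for IL6, CXCL1 and CCL20. The count was 7 for Cal27 and A375 (35.5%), 7 for Cal27 and Hth83 (35.0%), 6 for A375 and Hth83 (27.3%) and 5 for A375 and Fadu (36.0%). Pairs that share a line share its libraries.

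Among 12 receptors and antagonists of these cytokines, 4 exceeded 10 CPM in untreated Cal27, 4 in A375, 6 in Fadu and 3 in Hth83. CXCR1 and CCR6, the receptors of CXCL8 and CCL20, had means of 0 to 0.0461 CPM in every group. CXCR2 was at 4.66 CPM in untreated Fadu and fell (log2 −1.33 ± 0.20), at 1.12 CPM in Cal27, and at most 0.0405 CPM in the groups of A375 and Hth83. CSF2RB, the signalling subunit for CSF2, was at most 0.305 CPM. IL6R, IL6ST and IL1RAP were above 10 CPM in all lines, and LIFR in all but Hth83 (3.51 CPM). IL1RAP, the shared subunit for IL1A and IL1B signalling, fell in A375 (log2 −0.97 ± 0.05), Fadu (−1.07 ± 0.05) and Hth83 (−0.71 ± 0.05) and rose in Cal27 (0.34 ± 0.06). IL1R1, the other subunit, rose in Cal27 (0.32) and in Hth83 (0.49), there against IL1RAP. IL1R2, a decoy receptor that binds interleukin 1 without signalling, rose in Fadu from 0.211 to 5.37 CPM and in Hth83 from 1.56 to 4.97 CPM. It fell in Cal27 from 3.65 to 2.06 CPM. These IL1R2 levels were all below 10 CPM, and that of untreated Fadu was near 0. IL1RN, the interleukin 1 receptor antagonist, fell in Fadu from 29.6 to 14.8 CPM. Over the list of 12 receptors and antagonists, 5 rose and 1 fell of 9 tested in Cal27, 0 and 3 of 6 in A375, 2 and 4 of 9 in Fadu and 2 and 1 of 6 in Hth83. The share of all genes tested that changed was 45.1% in Cal27, 50.5% in A375, 53.3% in Fadu and 50.1% in Hth83.

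The rest of the chromosome 4 cluster was silent or nearly so. PF4, PF4V1, PPBP and CXCL6, which lie between CXCL8 and CXCL3, had group means of at most 0.0553 CPM in every line. CXCL5, a neutrophil chemoattractant, was detected above 1 CPM only in Hth83, where it fell from 260 to 168 CPM (log2 −0.63 ± 0.08), in the direction of CXCL2 and CXCL3 and against CXCL1. In that line the cluster thus held 1 gene that rose, 3 that fell and 1, CXCL8, that did not pass.

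The mRNAs of the NF-kB subunits changed in all 5 cases in Cal27, where 45.1% of all genes tested changed. There NFKB2 (log2 −0.60 ± 0.04), RELB (−0.55 ± 0.05), RELA (−0.29 ± 0.04) and NFKB1 (−0.21 ± 0.04) fell with the cytokines, while REL rose from 7.62 to 21.0 CPM (1.46 ± 0.11). In Fadu NFKB2 rose (0.31 ± 0.05) and NFKB1 (−0.57 ± 0.04) and REL (−0.50 ± 0.07) fell. In Hth83 1 of 5 subunits changed, NFKB2 at −0.16 ± 0.05, and in A375 2 of 5. The changed share of all genes tested was 53.3% in Fadu, 50.1% in Hth83 and 50.5% in A375. Of 11 IkB and feedback genes, 0 rose, 7 fell and 4 did not pass in Cal27, where 23.2% of all genes fell. In Hth83 7 rose and 2 fell, in A375 5 and 4, and in Fadu 4 and 5. The shares of all genes that rose were 25.9%, 25.7% and 26.3% in these lines, and those that fell 24.2%, 24.8% and 27%. TNFAIP3, which shuts off signalling to IKK, fell in Cal27 from 846 to 708 CPM (−0.26 ± 0.03) and rose in A375 (0.66 ± 0.08), Fadu (0.83 ± 0.03) and Hth83 (0.77 ± 0.06). BCL3, of the same list, fell in Cal27 (−0.50), A375 (−0.74) and Fadu (−0.83) and rose in Hth83 (0.55). NFKBIA, the classical IkB, fell in Fadu from 214 to 107 CPM (−1.01 ± 0.04) and rose in Hth83 from 28.6 to 42.5 CPM (0.57 ± 0.07). NFKBIB, another IkB, rose in Fadu (0.98) and A375 (0.47) and fell in Cal27 (−0.53).

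Most other secreted NF-kB targets tested were lower in Cal27 as well, where 23.2% of all genes tested fell and 21.9% rose. Of 23 such targets, 19 were tested there, 12 fell and 1, TNFSF15, rose (median log2 −0.67). The interferon-linked chemokines CXCL10 (27.3 to 10.0 CPM) and CXCL11 (22.7 to 8.31 CPM) had the largest falls among those above 10 CPM. In Fadu 4 rose and 11 fell of 17 (median −0.41, against 0.39 for the 10 genes). CSF1, the macrophage growth factor, fell in Fadu from 33.3 to 15.3 CPM (−1.12 ± 0.08). In Hth83 3 rose and 5 fell of 14, among them CSF3, the granulocyte growth factor, which rose from 90.3 to 234 CPM (1.37 ± 0.05), and IL11, of the IL6 family, which fell from 92.7 to 47.4 CPM (−0.97 ± 0.06). In A375 2 rose and 3 fell of 10. Of all genes tested, 26.3% rose and 27% fell in Fadu, and 25.9% and 24.2% in Hth83. The shares in A375 were 25.7% and 24.8%.

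**Figure D4:**
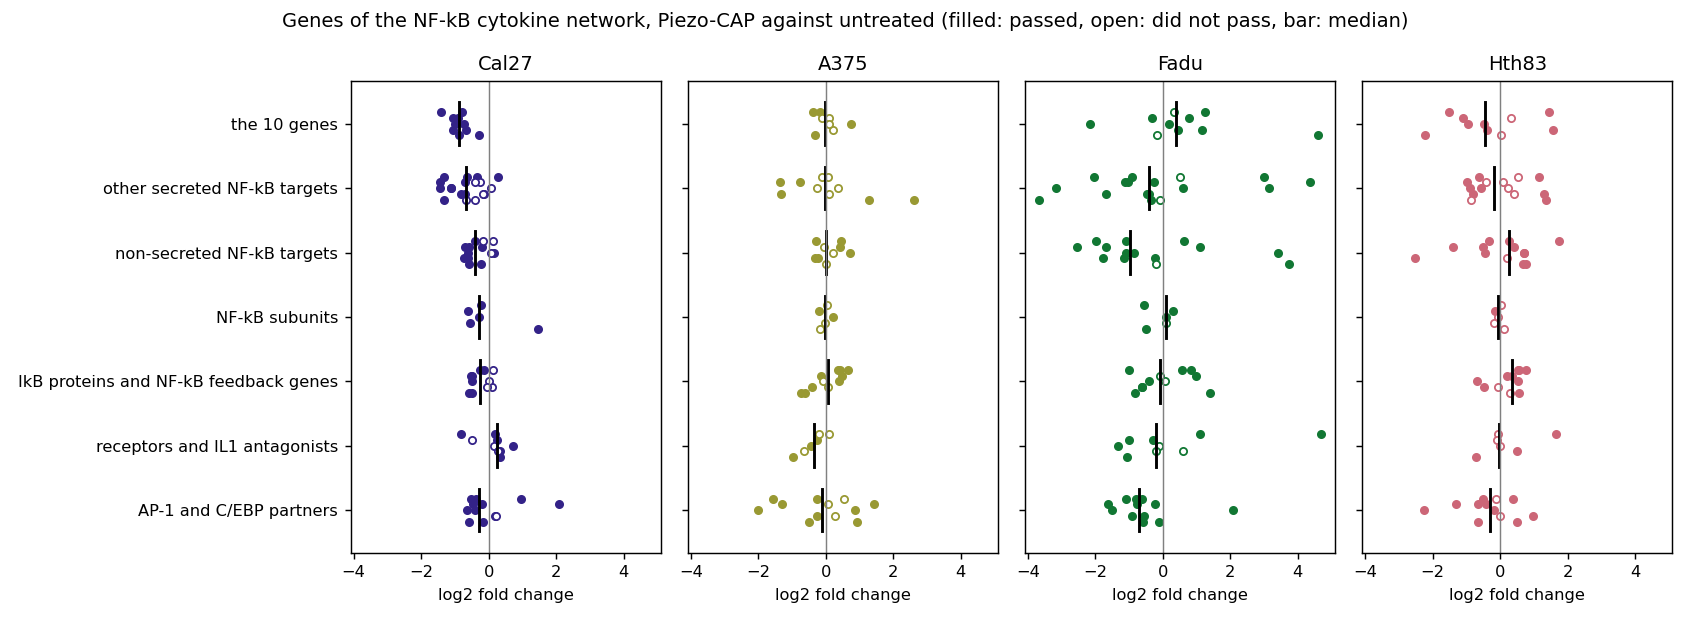
Log2 fold change of every tested gene of 7 lists in each line, Piezo-CAP against untreated. The list marked non-secreted also holds PLAU and LCN2, whose products are secreted. Filled points passed an adjusted p of 0.05, open points did not, and black bars are list medians. In Cal27 the medians of the 10 genes and of the other secreted targets lie at −0.88 and −0.67, and in Fadu at 0.39 and −0.41.

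The partner factors and decay factors of these mRNAs also differed by line. For comparison with the list counts, 45.1% of all genes tested changed in Cal27, 53.3% in Fadu, 50.1% in Hth83 and 50.5% in A375. Of 12 AP-1 and C/EBP genes, 3 rose and 8 fell in Cal27, 1 and 11 in Fadu, 3 and 7 in Hth83 and 3 and 6 in A375. FOSB rose in Cal27 from 23.4 to 99.6 CPM (log2 2.09 ± 0.07) and in A375 (1.43). It fell in Fadu from 56.3 to 18.1 CPM (−1.64 ± 0.07). FOSL1 was the 1 that rose in Fadu, from 58.9 to 247 CPM (2.07 ± 0.04). ATF3, a stress-induced member, fell in all 4 lines, from −0.65 in Cal27 to −2.26 in Hth83. Of 14 genes of AU-rich mRNA decay and stability, 6 rose and 5 fell in Cal27, and 2 and 8 in Fadu. In Hth83 6 rose and 4 fell, and in A375 7 and 3. ZFP36L2, a decay factor, was higher in Hth83 (0.78 ± 0.05) and A375 (0.998 ± 0.05). In the same list ZFP36 fell in A375 (−0.635) and ZFP36L1 in Hth83 (−0.54). CASP1, the protease of IL1B, fell in Cal27 from 98.4 to 68.6 CPM and in Fadu from 48.0 to 17.6 CPM.

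Signalling and downstream genes moved in both directions. As a background, 45.1% of all genes tested changed in Cal27, 50.5% in A375, 53.3% in Fadu and 50.1% in Hth83. Of 13 IKK and adaptor genes, 3 rose and 3 fell in Cal27, 6 and 3 in A375, 4 and 6 in Fadu and 1 and 3 in Hth83. SOCS3, a STAT3 target induced by IL6 and LIF, fell in Cal27 (log2 −0.39 ± 0.06) and A375 (−0.84 ± 0.07) and rose in Hth83 (0.40 ± 0.06). Over the STAT3 list of 13 genes, 2 rose and 4 fell of 11 tested in Cal27, 3 and 5 of 10 in A375, 4 and 7 of 11 in Fadu and 5 and 4 of 11 in Hth83. Of 16 non-secreted NF-kB targets, 1 rose and 9 fell of 13 in Cal27, 4 and 9 of 14 in Fadu, 7 and 5 of 13 in Hth83 and 3 and 3 of 9 in A375.

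Lineage markers moved with treatment in the same libraries. The summed level of the 18 squamous markers went from 9058 to 9247 CPM before to 7151 to 7182 CPM after treatment in Cal27, from 13752 to 14146 down to 8890.2 to 9426 CPM in Fadu, and from 13763 to 14367 down to 9726 to 10339 CPM in Hth83. In A375 it went from 605 to 630.2 up to 695 to 717 CPM. Of the markers tested, 2 rose and 14 fell in Cal27, 5 and 12 in Hth83, 6 and 3 in A375, and 8 and 9 in Fadu, where the median log2 change was −0.08. The shares of all genes tested that changed were 45.1% in Cal27, 50.1% in Hth83, 50.5% in A375 and 53.3% in Fadu. The summed level of 11 melanocyte and neural crest markers went in A375 from between 2831 and 2892 CPM to between 2392 and 2459 CPM. Of 9 tested there, 0 rose, 4 fell and 5 did not pass, with a median log2 change of −0.02. In Hth83 the summed level of 12 thyroid markers went from between 132 and 135 CPM to between 170.04 and 188 CPM. PAX8 (log2 0.40) was the only 1 of the 12 above 10 CPM, and those with 0 counts went from 4 to 5. The part of these marker changes in the cytokine changes was not tested. The leukocyte sum stayed within 19.1 to 20.9 CPM in both groups of Cal27, and CD3D and CD2 were at 0 in every group.

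The genes whose pattern over the 24 libraries was most like the mean standardised level of the 10 genes were LYRM4 (Pearson r = 0.988), TMEM259 (0.987), CPLX1 (0.986), FADS3 (0.986) and RIOX2 (0.985), among 23632 genes. The libraries share lines and treatments, so these values are a description. FADS3, a desaturase gene, had means of 277 CPM in untreated and 182 CPM in treated Cal27, 172 and 126 CPM in Hth83, 94.9 and 83.3 CPM in Fadu and 36.5 and 38.9 CPM in A375.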

How the data were processed

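The submitters' processing notes name HISAT2 and GRCh38; its version, the counting tool, annotation and strand setting are not given in the sources used. The authors deposited raw counts per gene and TPM for each line, 61533 genes each. Cells were exposed for 60 s or 0 s and RNA taken at 24 h with Trizol, and libraries made with a SMARTER mRNA-Seq kit on a HiSeq3000 run, per the labels' protocols.

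Counts (27.9 to 49.5 M per library) were tested per line with edgeR 4.0.16 in R 4.3.3: filterByExpr (minimum count 10, total 15), TMM, robust quasi-likelihood test, Benjamini-Hochberg adjustment over all genes tested, threshold 0.05, with 1 joint fit of 24 libraries for differences between lines. CPM are TMM-scaled within a line, except those of FADS3 and of the likeness correlations, which are scaled over all 24 libraries. TPM as deposited served for levels between genes and lines. SE is the log2 fold change over the square root of F. The scripts were tested on simulated data. Alternatives were DESeq2 1.42.0, limma 3.58.1, other scalings, filters and a replicate block. The 10 genes and the 18 other lists were chosen with earlier results of these data known. All 10 genes were reported. From other lists, genes were named among the 4 called ones per line with the largest absolute log2 fold change and at least 10 CPM. Receptors, subunits and cluster genes were exempt. TNFAIP3 and TNFSF15 in Cal27 and markers with 0 counts were named outside this rule. Sequences are from RefSeq.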

Additional observations from a re-analysis of the deposited data

Results flagged for a closer look

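Each of the 10 genes responded differently between the 4 lines by the edgeR interaction test over 24 libraries, adjusted over 23642 genes, of which 56.9% passed. The adjusted p was 1.05e-10 for IL6, 2.78e-07 for IL1A, 7.57e-08 for IL1B and 2.22e-11 for CXCL1. It was 1.65e-19 for CXCL2, 2.1e-20 for CXCL3, 1.49e-07 for CXCL8 and 1.8e-14 for CCL20, and 7.82e-18 for LIF and 1.1e-12 for CSF2. IL6 and CSF2 had almost no reads in A375, so their interaction rests mainly on the other 3 lines. For IL1A the lines differed in the size of a fall shared by all 4.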

How the results depend on the processing

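Over the alternative tests, scalings, filters and left-out libraries, 458 of 459 total counts of called genes among the 10 stayed within 1.5 times the reported count; the exception was A375, where DESeq2 called 2 genes (1 higher, 1 lower) against 4. By direction, A375 moved further: 2 higher and 1 lower without untreated replicate 1 or without treated replicate 3, and 2 and 2 with the replicate block, against 1 and 3. In Hth83 limma with no filter gave 1 higher against 2. Of 645 log2 fold changes, 20 lost their call and 6 gained one. Among changes called in either fit 0 changed sign, whereas 7 values called in neither did (IL1B and CCL20 in A375 and CSF2 in Hth83). The calls lost were CSF2 in Cal27 on TPM; CXCL3 and CXCL8 in A375; IL1B in Fadu in the joint fit (adjusted p = 0.0728); and IL1B and IL6 in Hth83 with limma and no filter (0.0683 and 0.139). In A375, leaving out 1 library gave CXCL3 an adjusted p of up to 0.155 and CXCL8 of up to 0.221. CXCL2 in Fadu passed without untreated replicate 1 (0.0474), and CXCL8 in Hth83 without robust dispersion (0.0119). Scaling moved the split of all calls: with library size only, 62.4% of calls were higher in Cal27, 61.8% in Fadu and 39.8% in A375, against 48.5%, 49.3% and 50.9% reported, and on log2(TPM + 1) 83.1% in Cal27. Same-numbered replicates showed little shared deviation (r from −0.0283 to 0.0596). With 3 libraries per group this cannot exclude a pairing, and in Fadu each sample correlated best with its own number. With the replicate block 10 genes were called in Cal27, 4 in A375, 8 in Fadu and 8 in Hth83, the same counts as without it, although in A375 LIF passed (adjusted p = 0.0302) and CXCL3 did not (0.0562). Low reads limit IL6 and CSF2 in A375: with no filter the log2 changes were 1.196 and 1.294 (adjusted p = 0.662 and 0.469).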
